A study of Homo sapiens with 8 samples.

Results

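Expression of the nuclear genes for oxidative phosphorylation was described in the human ovarian cancer line UWB1.289 by poly(A) RNA sequencing. The genes were chosen by symbol: those that match NDUFA, NDUFB, NDUFC, NDUFS or NDUFV with a number, SDHA to SDHD, and every symbol that begins with UQCR, UQCC, COX4, COX5, COX6, COX7, COX8 or ATP5. This selected 90 of the 25369 named genes, with 36 in complex I, 4 in complex II, 12 in complex III, 18 in complex IV and 20 in complex V, and NDUFA4 was placed in complex IV, of which it is a subunit. No measured value entered the choice, and a few copies, read-through transcripts and assembly factors carry such symbols and were kept. Of the 90 genes, 85 had enough counts to be tested, and COX4I2, COX6A2, COX7B2, COX8C and ATP5EP2 were not.

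UWB1.289 carries a truncating BRCA1 mutation and is called BRCA1-null here, and the BRCA1+ cells are the same line transduced with BRCA1. Cells of either line received 0.5 uM entinostat, which inhibits class I histone deacetylases, or DMSO alone (control), for 24 h. This gave 4 groups of 2 libraries: BRCA1+ control, BRCA1+ entinostat, BRCA1-null control and BRCA1-null entinostat. Both lines thus share the mutated background, and each genotype is represented by a single line. Nothing in the labels says that libraries of a group came from separate cultures, so the p-values measure the spread between these libraries, which may be technical. Because the RNA was taken from bulk cultures, fewer cells of a kind and less RNA per cell cannot be told apart. The design asks how restored BRCA1, entinostat and their combination relate to expression.

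Library totals lay between 31900158 and 53549893 counts, so that 3 counts, the upper limit that a count of 0 allows, corresponded to between 0.0552 and 0.0946 CPM (counts scaled to a common library size, with TMM factors). These floors cover counting error only. BRCA1 stood at 92.3 to 134 CPM in the 4 BRCA1+ libraries and at 17.6 to 22.4 CPM in the 4 BRCA1-null libraries, as the labels have it. The epithelial markers EPCAM, PAX8, MUC16 and KRT7 were all expressed, the lowest being MUC16 at 78.1 to 203 CPM, whereas WT1, a marker of serous tumours, lay between 0.0184 and 0.500 CPM. The 4 leukocyte markers summed to 3.13 to 10.4 CPM. The 3 endothelial markers summed to 8.75 to 15.4 CPM in BRCA1+ control, 26.1 to 37.2 in BRCA1+ entinostat, 32.3 to 52.4 in BRCA1-null control and 69.8 to 90.2 CPM in BRCA1-null entinostat libraries. CDH5 made up most of the sum in every group but BRCA1+ control, and the part of these markers in the results below was not tested.

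Oxidative phosphorylation couples electron transfer to ATP synthesis in the inner mitochondrial membrane. Complex I takes electrons from NADH and complex II from succinate, complex III passes them from ubiquinol to cytochrome c, complex IV reduces oxygen, and complex V makes ATP from the proton gradient set up by complexes I, III and IV. Complex II is encoded in the nucleus alone, while the other complexes combine nuclear subunits with subunits from mitochondrial DNA. No gene encoded in mitochondrial DNA was analysed here.

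The 90 genes together held between 0.896 and 0.953% of all counts. Their summed level was 9501 ± 354 CPM (mean ± SD, n = 2 per group throughout) in BRCA1+ control, 9208 ± 264 in BRCA1+ entinostat, 8800.0 ± 41.7 in BRCA1-null control and 8938 ± 139 CPM in BRCA1-null entinostat cells. Complex V carried the largest summed level, 3634 ± 148, 3568 ± 143, 3282 ± 24.8 and 3364 ± 82.0 CPM in the same order of groups. Complex I followed with 2742 ± 77.1, 2636 ± 33.9, 2570.0 ± 13.4 and 2575 ± 25.5 CPM. Complex III was at 1236 ± 29.0, 1184 ± 16.3, 1059 ± 15.6 and 1073 ± 39.6 CPM. Complexes I, III and V were each lower in both BRCA1-null groups than in both BRCA1+ groups by more than the SD of any group compared. For each of them every BRCA1-null library lay below every BRCA1+ library. As shares of library counts, without TMM factors, this held for complexes III and V only. Complex I overlapped on that scale, with 0.2541 to 0.2658% in BRCA1-null and 0.2596 to 0.2734% in BRCA1+ libraries. The sums of complex IV were 1394 ± 74.2, 1338 ± 55.9, 1407 ± 15.6 and 1445 ± 31.1 CPM. Those of complex II were 494 ± 24.5, 481 ± 13.8, 483 ± 0.0707 and 481 ± 11.8 CPM. Neither separated the lines beyond the spread in DMSO. In entinostat complex IV was higher in the BRCA1-null libraries (1423 and 1467 CPM) than in the BRCA1+ libraries (1299 and 1378 CPM), while complex II overlapped. An exact two-sided permutation test of 2 against 2 libraries cannot give a p below 0.333, so the sums were not tested.

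Levels of different genes were compared per kilobase of listed length, and so depend on the length that the table lists. On this scale ATP5B, the catalytic beta subunit of the ATP synthase, had the highest level of the set at 502 CPM per kb (mean of 8 libraries), the 155th highest among the 17714 tested genes. It was followed by ATP5I (448 CPM per kb), ATP5E (364), UQCRH (362) and COX7C (360.5), all small subunits, in an order that differed between the lines. Levels of subunits of 1 complex were far from equal. In complex I they ran from 6.75 CPM per kb for NDUFA5, whose listed length is 6506 bases, to 327 for NDUFB9. In complex II SDHB was highest, at 134, and the lowest was SDHA in BRCA1+ cells (28.0 in control) and SDHC in BRCA1-null cells (37.6 in control). In complex IV the ubiquitous isoform exceeded the tissue-restricted one in every pair: COX4I1 stood at 240.2 CPM per kb, COX6A1 at 295, COX6B1 at 137, COX7A2 at 93.9, COX7B at 121 and COX8A at 220.2, against 0.323 for COX6B2 and 0.922 for COX7A1. The other restricted forms were barely counted. COX4I2 had 1 count in 1 library, COX7B2 1 count in 1 library, COX8C 0 to 3 counts and COX6A2 0 to 6 counts per library, with 6 counts in 1 control library of each line and 0 or 1 in the other libraries. The 3 genes for subunit c of the ATP synthase, whose precursors differ but give the same mature protein, stood at 151 (ATP5G1), 112 (ATP5G2) and 70.8 CPM per kb (ATP5G3).

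**Figure D1:**
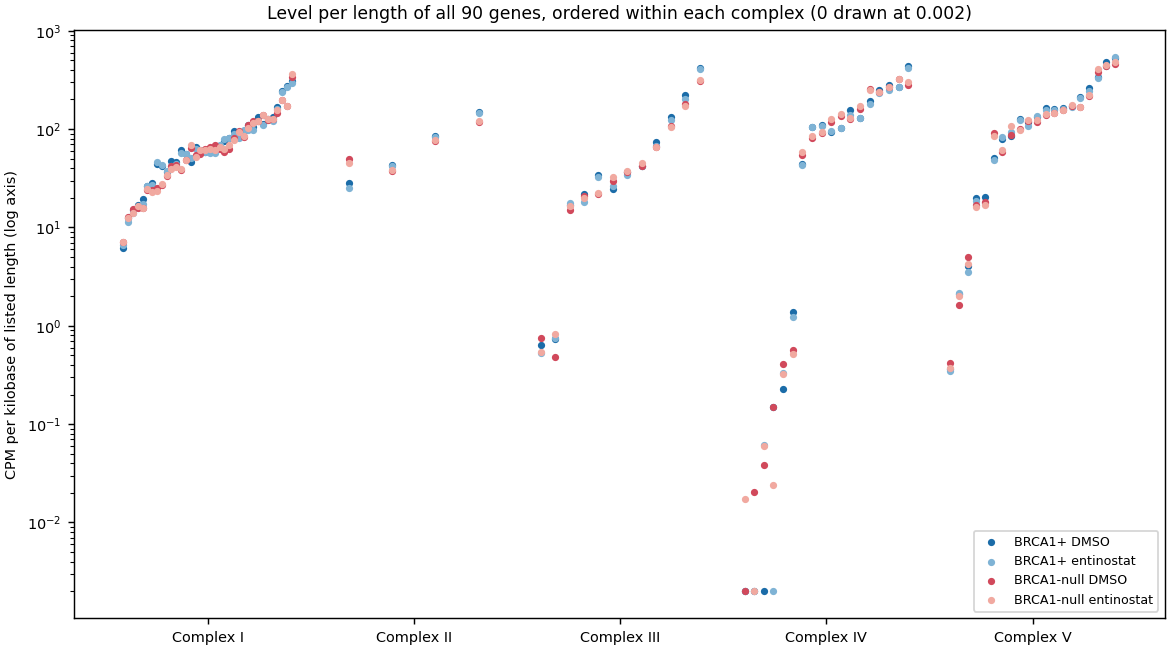
Level of each of the 90 genes in CPM per kilobase of listed length (log axis), 1 point per group mean of 2 libraries, with genes ordered by level within each complex. Points of the 4 groups nearly coincide for most genes, from 502 CPM per kb for ATP5B down to the restricted isoforms of complex IV, the only genes drawn under 0.2 CPM per kb.

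Entinostat moved few of these genes. In BRCA1+ cells 1 of the 85 tested genes was called (edgeR's quasi-likelihood test, Benjamini-Hochberg adjusted p under 0.05 over all 17714 genes), against 14.1% of all genes (8.15% higher, 6.0% lower). An unadjusted p under 0.05 was found for 7 of the 85, beside 29.0% of all genes. In BRCA1-null cells 0 of 85 were called by edgeR's quasi-likelihood test, by its likelihood ratio test and by DESeq2, against 10.8% of all genes (7.57% higher, 3.19% lower) with the quasi-likelihood test. Here 5 had an unadjusted p under 0.05, beside 27.4% of all genes, and the smallest adjusted p of the set was 0.102. The median log2 fold change of the set was -0.04 in BRCA1+ and 0.02 in BRCA1-null cells, beside 0.00 and 0.02 over all tested genes. For 79 of the 80 genes whose mean log2 CPM reached 3, the 95% interval of the entinostat effect in BRCA1+ cells lay within 0.5 of 0 on the log2 scale, and for 78 of 80 in BRCA1-null cells. The effects ranged from -0.26 to 0.15 and from -0.24 to 0.30 over these 80 genes. The interaction, the entinostat effect in BRCA1-null minus that in BRCA1+ cells, was called by edgeR's quasi-likelihood test for 0 of the 85 genes and for 0.00% of all genes. By that test 2 genes of the set, NDUFB4 and ATP5I, had an unadjusted p under 0.05, beside 4.67% of all genes. With DESeq2 and the likelihood ratio test the interaction was also called for 0 of the 85.

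The 1 gene called was NDUFS3, a core subunit in the matrix arm of complex I, which was at 61.5 and 68.2 CPM (control) and 52.1 and 56.2 (entinostat) in BRCA1+ cells, and 66.5 and 66.6 (control) and 59.5 and 58.3 (entinostat) in BRCA1-null cells. Its log2 fold change under entinostat was -0.26 ± 0.0719 (SE, adjusted p = 0.0439) in BRCA1+ cells, so that it fell, and -0.18 ± 0.0706 (SE, adjusted p = 0.144) in BRCA1-null cells. The entinostat libraries lay below the control libraries without overlap in both lines, and the interaction was not called for NDUFS3. NDUFS3 overlaps KBTBD4, and the call was lost without any 1 of 7 of the 8 libraries and kept only without BRCA1+ control replicate 1.

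**Figure D2:**
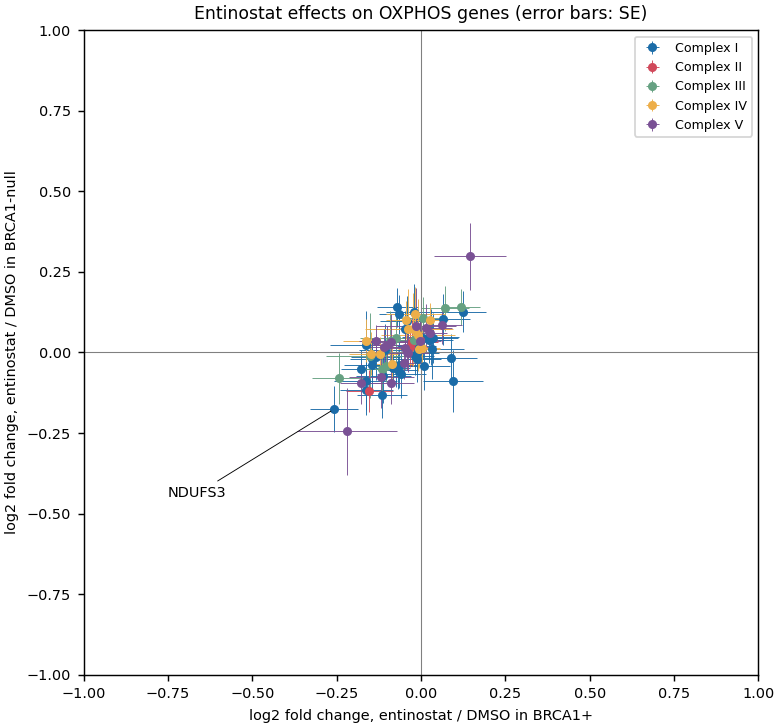
Log2 fold change of entinostat against DMSO in BRCA1+ cells (x axis) and in BRCA1-null cells (y axis) for the 80 genes whose mean log2 CPM reached 3, with SE as bars and colours for the complexes. All points lie between -0.26 and 0.30, and only NDUFS3 was called, in BRCA1+ cells.

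The lines differed more. In DMSO the test called 42 of 85 genes, with 12 above and 30 below BRCA1+ cells, against 42.2% of all tested genes, with 21.1% higher and 21.0% lower. The share called was thus near that of all genes, and the median log2 fold change was -0.14, beside 0.01 over all genes. In entinostat 36 of 85 were called, 14 higher and 22 lower, against 39.4% of all genes (20.5% higher and 18.9% lower), with a median of -0.03 beside 0.02. The comparisons share no library but set the same lines against each other, and the share of all genes called in both was not computed. In the set 34 genes were called in both, 12 higher and 22 lower each time. Of the 10 others, NDUFA4 and ATP5F1 were called in entinostat only and 8 in DMSO only. NDUFA4 was close to the threshold in DMSO as well (adjusted p = 0.0716), and it was called there under 8 of 16 alternatives. Most differences were small: 9 genes in DMSO and 8 in entinostat were called beyond 0.5 on the log2 scale. Called or not, the libraries of the lines did not overlap for 18 higher and 49 lower genes in DMSO, and for 30 and 40 in entinostat. A lack of overlap thus says little about a single gene, and its share over all genes was not computed. Without BRCA1-null control replicate 2, the DMSO count was 27 (8 higher, 19 lower), beside 30.7% of all genes with that library left out.

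**Figure D3:**
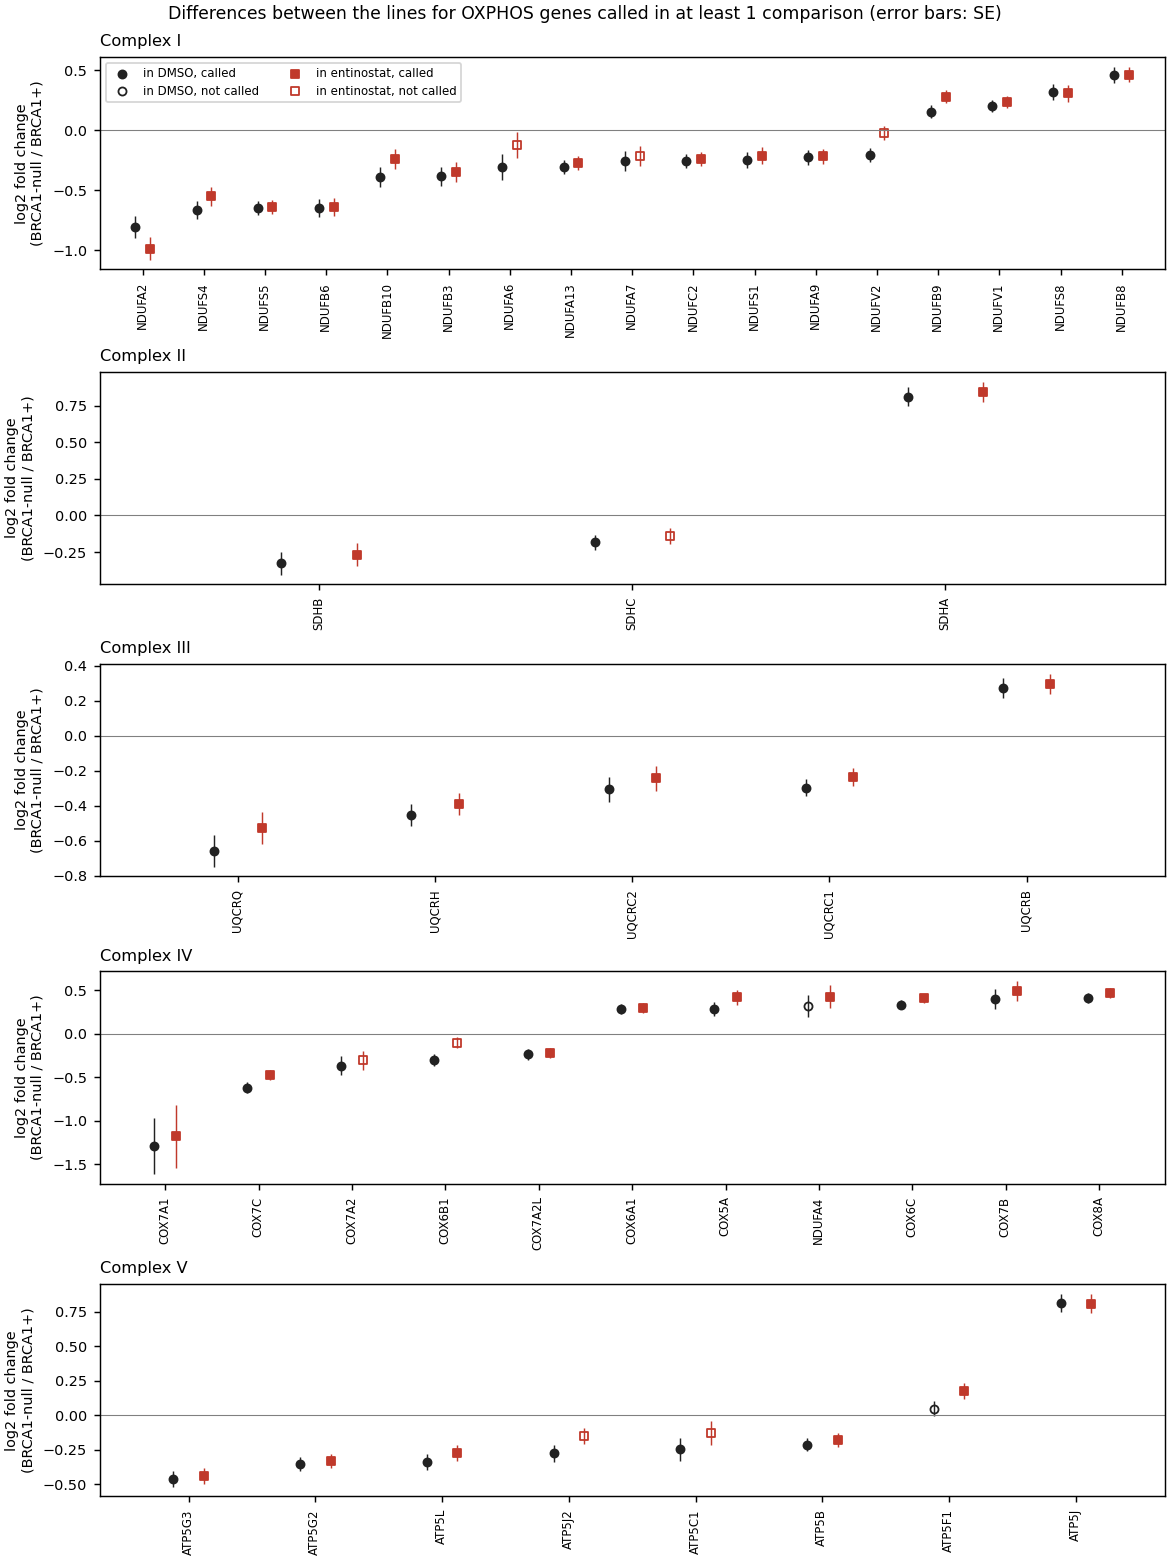
Log2 fold change of BRCA1-null against BRCA1+ cells for the genes of the set called in at least 1 of the comparisons, ordered within each complex by the value in DMSO (circles), with the value in entinostat beside it (squares), SE as bars and filled symbols where the gene was called. SDHA and ATP5J stand highest, and COX7A1, NDUFA2, NDUFS4, UQCRQ, NDUFB6, NDUFS5 and COX7C lowest.

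Complex I had 4 genes higher and 13 lower of 36 in DMSO, and 4 higher and 10 lower in entinostat. The shares called were 47.2% and 38.9%, beside 42.2% and 39.4% of all genes. The 7 core subunits, which carry the flavin and iron-sulfur centres, had 2 higher and 2 lower in DMSO, and the 29 accessory subunits 2 higher and 11 lower. In entinostat these counts were 2 and 1, and 2 and 9. Of the core subunits 57.1% and 42.9% were called, and of the accessory subunits 44.8% and 37.9%. The difference between these classes was not tested. NDUFV1, which binds NADH and the flavin, was at 174 and 167 CPM (control) and 161 and 161 (entinostat) in BRCA1+ cells, and 195 and 197 (control) and 192 and 187 (entinostat) in BRCA1-null cells. Its log2 fold change in BRCA1-null cells was 0.20 ± 0.0505 (SE, adjusted p = 0.0109) in DMSO and 0.24 ± 0.0508 (SE, adjusted p = 0.00532) in entinostat. NDUFS8, which holds iron-sulfur centres near the quinone site, was at 85.1 and 95.4 CPM (control) and 86.9 and 92.1 (entinostat) in BRCA1+ cells, and 111 and 114 (control) and 108 and 114 (entinostat) in BRCA1-null cells. It rose in BRCA1-null cells by 0.32 ± 0.0698 (SE, adjusted p = 0.00577) in DMSO and 0.31 ± 0.0703 (SE, adjusted p = 0.00727) in entinostat on the log2 scale, and for neither gene did the lines overlap. Both lie on chromosome 11. With single libraries left out (numbered by replicate), the call was lost for NDUFV1 in DMSO without BRCA1+ control 2 or BRCA1-null control 2 (adjusted p up to 0.0713), and for NDUFS8 in entinostat without BRCA1+ entinostat 1 (adjusted p = 0.0677).

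The largest subunit of the matrix arm, NDUFS1, was lower in BRCA1-null cells. It stood at 96.0 and 106 CPM (control) and 92.8 and 98.5 (entinostat) in BRCA1+ cells, and 87.2 and 83.0 (control) and 82.0 and 83.3 (entinostat) in BRCA1-null cells, with log2 fold changes of -0.25 ± 0.0669 (SE, adjusted p = 0.0161) in DMSO and -0.21 ± 0.0676 (SE, adjusted p = 0.0331) in entinostat. NDUFV2, an iron-sulfur subunit next to the flavin, was at 148 and 164 CPM (control) and 148 and 150.0 (entinostat) in BRCA1+ cells, and 138 and 133 (control) and 146 and 147 (entinostat) in BRCA1-null cells. Its difference was called in DMSO only, at a log2 value of -0.21 ± 0.0609 (SE, adjusted p = 0.0229), and its interaction was not called. NDUFS7, another core subunit, was at 34.7 and 37.9 CPM (control) and 34.4 and 35.4 (entinostat) in BRCA1+ cells, and 35.1 and 33.4 (control) and 32.5 and 32.9 (entinostat) in BRCA1-null cells. NDUFS7 was called in neither comparison, and the lines overlapped in DMSO. Calls were lost for NDUFS1 in DMSO without BRCA1+ control 2 or BRCA1-null control 2 (adjusted p up to 0.116), and for NDUFS1 in entinostat without BRCA1+ entinostat 2 or BRCA1-null entinostat 1 or 2 (adjusted p up to 0.186). Calls were also lost for NDUFV2 in DMSO without BRCA1+ control 2 or BRCA1-null control 1 or 2, or with upper-quartile factors or only the groups compared (adjusted p up to 0.162).

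Among the accessory subunits, which surround the core and are needed for assembly and stability, NDUFB8 of the membrane arm (chromosome 10, 102283486 to 102289680 on hg19) stood highest relative to BRCA1+ cells. It was at 43.7 and 44.0 CPM (control) and 47.9 and 47.8 (entinostat) in BRCA1+ cells, and 58.7 and 62.1 (control) and 68.1 and 63.8 (entinostat) in BRCA1-null cells. NDUFB8 rose in BRCA1-null cells by 0.46 ± 0.0650 (SE, adjusted p = 0.000495) in DMSO and 0.46 ± 0.0652 (SE, adjusted p = 0.000511) in entinostat on the log2 scale. The other accessory gene that was higher in both comparisons was NDUFB9 (0.15 and 0.28 on the log2 scale). A call was lost for NDUFB9 in DMSO without any 1 of 7 libraries, or with no filter or the likelihood ratio test or DESeq2 or only the groups compared (adjusted p up to 0.249). NDUFA2 (chromosome 5, 140024948 to 140027370 on hg19), a small subunit of the matrix arm, was the lowest. It was at 38.1 and 40.1 CPM (control) and 39.6 and 43.7 (entinostat) in BRCA1+ cells, and 23.1 and 21.7 (control) and 22.6 and 19.5 (entinostat) in BRCA1-null cells. In BRCA1-null cells it fell, with log2 values of -0.80 ± 0.0921 (SE, adjusted p = 0.000149) in DMSO and -0.99 ± 0.0938 (SE, adjusted p = 5.51e-05) in entinostat, and all BRCA1-null libraries lay below all BRCA1+ libraries. NDUFA2 overlaps TMCO6.

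NDUFS4 (chromosome 5, 52856465 to 52979171 on hg19), an assembly-critical subunit whose loss causes Leigh syndrome, was at 40.0 and 42.8 CPM (control) and 38.3 and 38.6 (entinostat) in BRCA1+ cells, and 24.9 and 27.2 (control) and 25.4 and 27.2 (entinostat) in BRCA1-null cells. It fell in BRCA1-null cells, with log2 fold changes of -0.67 ± 0.0779 (SE, adjusted p = 0.00017) in DMSO and -0.55 ± 0.0796 (SE, adjusted p = 0.000605) in entinostat. NDUFS5 on chromosome 1 and NDUFB6 on chromosome 9 fell about as far, with log2 values of -0.65 and -0.64 for NDUFS5 and -0.65 and -0.64 for NDUFB6. Smaller falls in both comparisons were measured for NDUFB3 (log2 values of -0.39 and -0.35), NDUFB10 (-0.39 and -0.24), NDUFA13 (-0.30 and -0.27), NDUFC2 (-0.25 and -0.24) and NDUFA9 (-0.23 and -0.22). NDUFS6 on chromosome 5, by contrast, was at 74.7 and 69.2 CPM (control) and 68.5 and 62.7 (entinostat) in BRCA1+ cells, and 67.8 and 72.6 (control) and 68.2 and 71.0 (entinostat) in BRCA1-null cells, and the lines overlapped. The smaller calls were lost for NDUFB3 in entinostat without BRCA1-null entinostat 2 (adjusted p = 0.0541), and for NDUFB10 in entinostat without any 1 of 5 libraries, or with upper-quartile factors or no filter or the stricter filter or the likelihood ratio test (adjusted p up to 0.256). A call was further lost for NDUFC2 in DMSO without BRCA1-null control 2 (adjusted p = 0.062), and for NDUFC2 in entinostat without BRCA1+ entinostat 2 or BRCA1-null entinostat 2 (adjusted p up to 0.0728). Such a loss was also seen for NDUFA9 in DMSO without BRCA1+ control 2 or BRCA1-null control 1 or 2 (adjusted p up to 0.114), and for NDUFA9 in entinostat without BRCA1+ entinostat 2 or BRCA1-null entinostat 1 or 2 (adjusted p up to 0.147).

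Complex II, succinate dehydrogenase, which also belongs to the citric acid cycle, moved in both directions. SDHA (chromosome 5, 218356 to 256814 on hg19), the flavoprotein that oxidises succinate, was at 66.5 and 67.5 CPM (control) and 59.7 and 60.7 (entinostat) in BRCA1+ cells, and 116 and 119.7 (control) and 102 and 114 (entinostat) in BRCA1-null cells. It rose in BRCA1-null cells by 0.81 ± 0.0677 (SE, adjusted p = 2.56e-05) in DMSO and 0.85 ± 0.0687 (SE, adjusted p = 2.38e-05) in entinostat on the log2 scale, and every BRCA1-null library lay above every BRCA1+ library. Copies of SDHA elsewhere in the genome could share its reads: SDHAP1 and SDHAP2 on chromosome 3 were not called in DMSO, with log2 values of -0.14 ± 0.148 (SE, adjusted p = 0.469) and 0.09 ± 0.127 (SE, adjusted p = 0.592), and SDHAP3 on chromosome 5 was higher by 0.91 ± 0.220 (SE, adjusted p = 0.0089) at 70 to 186 counts per library. How reads were divided between the copies is not known.

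SDHB, the iron-sulfur subunit, was at 159 and 183 CPM (control) and 162 and 174 (entinostat) in BRCA1+ cells, and 137 and 136 (control) and 134 and 145 (entinostat) in BRCA1-null cells. It fell in BRCA1-null cells, with log2 values of -0.33 ± 0.0764 (SE, adjusted p = 0.00777) in DMSO and -0.27 ± 0.0767 (SE, adjusted p = 0.0214) in entinostat. The membrane anchors were closer to equal. SDHC was at 122 and 124 CPM (control) and 121 and 124 (entinostat) in BRCA1+ cells, and 109.6 and 107 (control) and 109.7 and 113 (entinostat) in BRCA1-null cells, with log2 values of -0.18 ± 0.0527 (SE, adjusted p = 0.0202) in DMSO and -0.14 ± 0.0530 (SE, adjusted p = 0.0626) in entinostat, and only the first was past the threshold. SDHD was at 129 and 137 CPM (control) and 128 and 132 (entinostat) in BRCA1+ cells, and 120.5 and 120.0 (control) and 127 and 117 (entinostat) in BRCA1-null cells, called in neither comparison although the groups did not overlap. The calls were lost for SDHB in DMSO without BRCA1+ control 2 (adjusted p = 0.0612), and for SDHB in entinostat without BRCA1+ entinostat 2 or BRCA1-null entinostat 1 (adjusted p up to 0.139). Calls failed likewise for SDHC in DMSO without BRCA1+ control 1 or 2 or BRCA1-null control 1 or 2, or with upper-quartile factors or only the groups compared (adjusted p up to 0.109).

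Complex III had 1 gene higher and 4 lower of 12 in both comparisons, and the 5 genes were the same ones: UQCRB rose, and UQCRQ, UQCRH, UQCRC1 and UQCRC2 fell. In each comparison 41.7% were called, beside 42.2% and 39.4% of all genes. UQCRC1, a core protein of the matrix side, was at 214 and 211 CPM (control) and 195 and 200.4 (entinostat) in BRCA1+ cells, and 170.3 and 175 (control) and 168 and 169 (entinostat) in BRCA1-null cells. Its log2 fold change was -0.30 ± 0.0498 (SE, adjusted p = 0.00133) in DMSO and -0.23 ± 0.05001 (SE, adjusted p = 0.00504) in entinostat. UQCRC2, the other core protein, was at 347 and 389.7 CPM (control) and 328 and 352 (entinostat) in BRCA1+ cells, and 304 and 291 (control) and 276 and 299 (entinostat) in BRCA1-null cells. It fell, with log2 values of -0.31 ± 0.0710 (SE, adjusted p = 0.00738) in DMSO and -0.24 ± 0.0712 (SE, adjusted p = 0.0229) in entinostat. The lines overlapped for neither core protein. A call was lost for UQCRC2 in DMSO without BRCA1+ control 2 or BRCA1-null control 2 (adjusted p up to 0.0597), and for UQCRC2 in entinostat without BRCA1+ entinostat 2 or BRCA1-null entinostat 1 (adjusted p up to 0.144).

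UQCRQ (chromosome 5, 132202319 to 132204536 on hg19), a small subunit that contacts cytochrome b, was at 49.99 and 59.2 CPM (control) and 49.3 and 53.1 (entinostat) in BRCA1+ cells, and 33.2 and 36.1 (control) and 35.5 and 35.6 (entinostat) in BRCA1-null cells. It fell in BRCA1-null cells, with log2 values of -0.66 ± 0.0916 (SE, adjusted p = 0.000468) in DMSO and -0.53 ± 0.0930 (SE, adjusted p = 0.00179) in entinostat. The hinge protein UQCRH fell less, with log2 values of -0.45 and -0.39. UQCRB, which lies near the quinone sites, was at 125 and 131 CPM (control) and 138 and 139.8 (entinostat) in BRCA1+ cells, and 149 and 160.1 (control) and 170.3 and 171 (entinostat) in BRCA1-null cells. It rose by 0.27 ± 0.0569 (SE, adjusted p = 0.00439) in DMSO and 0.30 ± 0.0570 (SE, adjusted p = 0.00286) in entinostat on the log2 scale. UQCRFS1, the Rieske iron-sulfur protein, was at 93.9 and 86.7 CPM (control) and 86.5 and 76.5 (entinostat) in BRCA1+ cells, and 77.3 and 84.5 (control) and 67.9 and 93.0 (entinostat) in BRCA1-null cells. UQCRFS1 was not called. UQCRQ overlaps GDF9, and UQCRH and UQCRB have near-identical copies in the set, UQCRHL and UQCRBP1, both under 1 CPM per kb and neither called, with which reads could be shared.

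Complex IV, cytochrome c oxidase, was the only complex with as many genes higher as lower in DMSO, 5 and 5 of 14, and in entinostat 6 were higher and 3 lower. The shares called were 71.4% and 64.3%, beside 42.2% and 39.4% of all genes. The genes higher in both were COX8A, COX7B, COX6C, COX5A and COX6A1. COX8A (chromosome 11, 63742079 to 63744015 on hg19), a small subunit of the membrane part, was at 96.7 and 98.4 CPM (control) and 89.4 and 94.4 (entinostat) in BRCA1+ cells, and 134 and 127 (control) and 129 and 125 (entinostat) in BRCA1-null cells. It rose in BRCA1-null cells by 0.41 ± 0.0579 (SE, adjusted p = 0.000471) in DMSO and 0.47 ± 0.0585 (SE, adjusted p = 0.000264) in entinostat on the log2 scale. COX7B on the X chromosome was at 42.3 and 51.9 CPM (control) and 42.2 and 50.3 (entinostat) in BRCA1+ cells, and 59.0 and 64.7 (control) and 61.9 and 68.3 (entinostat) in BRCA1-null cells. COX7B rose by 0.39 ± 0.115 (SE, adjusted p = 0.0224) in DMSO and 0.49 ± 0.116 (SE, adjusted p = 0.00901) in entinostat on the log2 scale. COX6A1, a regulatory subunit, was at 151 and 153 CPM (control) and 149 and 155 (entinostat) in BRCA1+ cells, and 187 and 181.9 (control) and 191 and 181.7 (entinostat) in BRCA1-null cells. COX6A1 rose by 0.28 ± 0.0540 (SE, adjusted p = 0.00284) in DMSO and 0.29 ± 0.0542 (SE, adjusted p = 0.00235) in entinostat on the log2 scale. COX6C (log2 values of 0.33 and 0.41) and COX5A (0.28 and 0.42) were higher too, and the lines overlapped for none of these genes. Calls were lost for COX7B in DMSO without BRCA1+ control 1 or BRCA1-null control 2 (adjusted p up to 0.147), and for COX7B in entinostat without BRCA1+ entinostat 1 or BRCA1-null entinostat 2 (adjusted p up to 0.0782). Calls were also lost for COX5A in DMSO without BRCA1+ control 1 or 2 or BRCA1-null control 2 (adjusted p up to 0.125).

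COX7C (chromosome 5, 85913784 to 85916583 on hg19) had the largest fall in complex IV among well expressed genes. It was at 170.2 and 184 CPM (control) and 166 and 177 (entinostat) in BRCA1+ cells, and 115 and 115 (control) and 123 and 124 (entinostat) in BRCA1-null cells. The log2 fold change of COX7C was -0.62 ± 0.0597 (SE, adjusted p = 5.36e-05) in DMSO and -0.48 ± 0.0599 (SE, adjusted p = 0.000263) in entinostat. COX6B1, which faces the intermembrane space, was at 87.2 and 95.6 CPM (control) and 78.7 and 84.3 (entinostat) in BRCA1+ cells, and 74.4 and 73.8 (control) and 74.9 and 77.1 (entinostat) in BRCA1-null cells. It passed the threshold in DMSO at a log2 value of -0.30 ± 0.0665 (SE, adjusted p = 0.00569) and not in entinostat. COX4I1, the largest nuclear subunit and a site of regulation by adenine nucleotides, was at 205 and 210.3 CPM (control) and 186 and 196 (entinostat) in BRCA1+ cells, and 193 and 201 (control) and 194 and 198 (entinostat) in BRCA1-null cells. It was called in neither comparison.

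The COX7A family is a set of paralogs with different tissue ranges and roles. COX7A2, the form of most tissues, was at 71.0 and 87.7 CPM (control) and 71.8 and 85.7 (entinostat) in BRCA1+ cells, and 63.5 and 59.4 (control) and 64.2 and 63.3 (entinostat) in BRCA1-null cells. Its log2 fold change was -0.37 ± 0.110 (SE, adjusted p = 0.0231) in DMSO and -0.31 ± 0.111 (SE, adjusted p = 0.0524) in entinostat, so that by this test it was called in DMSO only. In entinostat it was, however, called under 8 of the 16 alternatives, DESeq2 (adjusted p = 0.0188) and the likelihood ratio test (adjusted p = 0.0356) among them. COX7A2L, a factor in joining complexes III and IV into supercomplexes, was at 117 and 126 CPM (control) and 119.8 and 122 (entinostat) in BRCA1+ cells, and 101 and 104 (control) and 101 and 106 (entinostat) in BRCA1-null cells. It fell, with log2 values of -0.24 ± 0.0609 (SE, adjusted p = 0.0116) in DMSO and -0.22 ± 0.0613 (SE, adjusted p = 0.0179) in entinostat. COX7A1, the form of heart and skeletal muscle, had 39 and 52 counts (control) and 36 and 34 (entinostat) in BRCA1+ cells, and 20 and 23 (control) and 21 and 14 (entinostat) in BRCA1-null cells. Low as these counts were, it fell in BRCA1-null cells, with log2 values of -1.29 ± 0.323 (SE, adjusted p = 0.0105) in DMSO and -1.18 ± 0.361 (SE, adjusted p = 0.0273) in entinostat. The 4 striated muscle markers summed to 0.0216 to 0.221 CPM in the libraries, against a floor of 0.0552 to 0.0946 CPM for a single gene. COX6B2, a testis form, had 16 and 16 counts (control) and 19 and 23 (entinostat) in BRCA1+ cells, and 23 and 47 (control) and 25 and 23 (entinostat) in BRCA1-null cells, and it was not called. In this family calls were lost for COX7A2 in DMSO without BRCA1+ control 2 or BRCA1-null control 1 or 2 (adjusted p up to 0.179), and for COX7A2L in DMSO without BRCA1+ control 2 or BRCA1-null control 1 (adjusted p up to 0.0918). A call was further lost for COX7A2L in entinostat without BRCA1+ entinostat 1 or 2 or BRCA1-null entinostat 1 (adjusted p up to 0.103), and for COX7A1 in DMSO without BRCA1+ control 2 or BRCA1-null control 2, or with DESeq2 (adjusted p up to 0.0713). Such a loss was also seen for COX7A1 in entinostat without BRCA1+ entinostat 1 or BRCA1-null entinostat 1 or 2, or with DESeq2 (adjusted p up to 0.14).

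Complex V, the ATP synthase, had 1 gene higher and 6 lower of 19 in DMSO and 2 higher and 4 lower in entinostat. The shares called were 36.8% and 31.6%, beside 42.2% and 39.4% of all genes. ATP5J (chromosome 21, 27096791 to 27107965 on hg19), coupling factor 6 of the peripheral stalk, was at 64.2 and 68.8 CPM (control) and 64.3 and 60.9 (entinostat) in BRCA1+ cells, and 121 and 114 (control) and 107 and 112 (entinostat) in BRCA1-null cells. It rose by 0.81 ± 0.0659 (SE, adjusted p = 2.2e-05) in DMSO and 0.81 ± 0.0668 (SE, adjusted p = 2.57e-05) in entinostat on the log2 scale, and the BRCA1-null libraries all lay above the BRCA1+ libraries. Its listed position shares 708 bases with that of GABPA on the opposite strand, and without strand in the counting, reads of the shared stretch cannot be told apart. ATP5F1, subunit b of the same stalk, was called higher in entinostat only (0.17 on the log2 scale). The last call was lost for ATP5F1 in entinostat without any 1 of 5 libraries, or with DESeq2 or only the groups compared (adjusted p up to 0.224).

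The c ring, which turns in the membrane as protons pass, is supplied by 3 genes. ATP5G1 was at 103 and 104 CPM (control) and 100.4 and 100.2 (entinostat) in BRCA1+ cells, and 95.7 and 91.6 (control) and 94.8 and 92.5 (entinostat) in BRCA1-null cells. ATP5G1 was not called. ATP5G2 was at 164 and 163 CPM (control) and 156 and 159.8 (entinostat) in BRCA1+ cells, and 128 and 128 (control) and 126 and 124 (entinostat) in BRCA1-null cells. Its log2 fold change was -0.35 ± 0.0502 (SE, adjusted p = 0.000526) in DMSO and -0.33 ± 0.0505 (SE, adjusted p = 0.000763) in entinostat. ATP5G3 was at 272 and 285 CPM (control) and 284 and 298 (entinostat) in BRCA1+ cells, and 198 and 206 (control) and 207 and 221 (entinostat) in BRCA1-null cells. The log2 fold change of ATP5G3 was -0.46 ± 0.0576 (SE, adjusted p = 0.000248) in DMSO and -0.44 ± 0.0577 (SE, adjusted p = 0.000333) in entinostat. ATP5G2 and ATP5G3 fell in BRCA1-null cells. The lines were separate for all 3 genes, as they were for most genes of the set. In the catalytic head, ATP5B was at 962 and 997 CPM (control) and 964 and 1031 (entinostat) in BRCA1+ cells, and 851 and 838 (control) and 870.0 and 892 (entinostat) in BRCA1-null cells. It fell, with log2 values of -0.21 ± 0.0498 (SE, adjusted p = 0.0076) in DMSO and -0.18 ± 0.0498 (SE, adjusted p = 0.0185) in entinostat. ATP5A1, the alpha subunit beside it, was at 381 and 418 CPM (control) and 376 and 402 (entinostat) in BRCA1+ cells, and 373 and 388 (control) and 376 and 386 (entinostat) in BRCA1-null cells. The lines overlapped for ATP5A1, which was not called. The other genes lower in DMSO were ATP5L (a log2 value of -0.34), ATP5J2 (-0.28) and ATP5C1 (-0.25), of which ATP5L was also called in entinostat (-0.28). Calls in complex V were lost for ATP5B in DMSO without BRCA1+ control 2 (adjusted p = 0.0542), and for ATP5B in entinostat without BRCA1+ entinostat 2 or BRCA1-null entinostat 1 (adjusted p up to 0.141). Calls failed likewise for ATP5J2 in DMSO without BRCA1-null control 2 (adjusted p = 0.052), and for ATP5C1 in DMSO without BRCA1+ control 2 or BRCA1-null control 1 or 2, or with upper-quartile factors or the stricter filter (adjusted p up to 0.269).

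**Figure D4:**
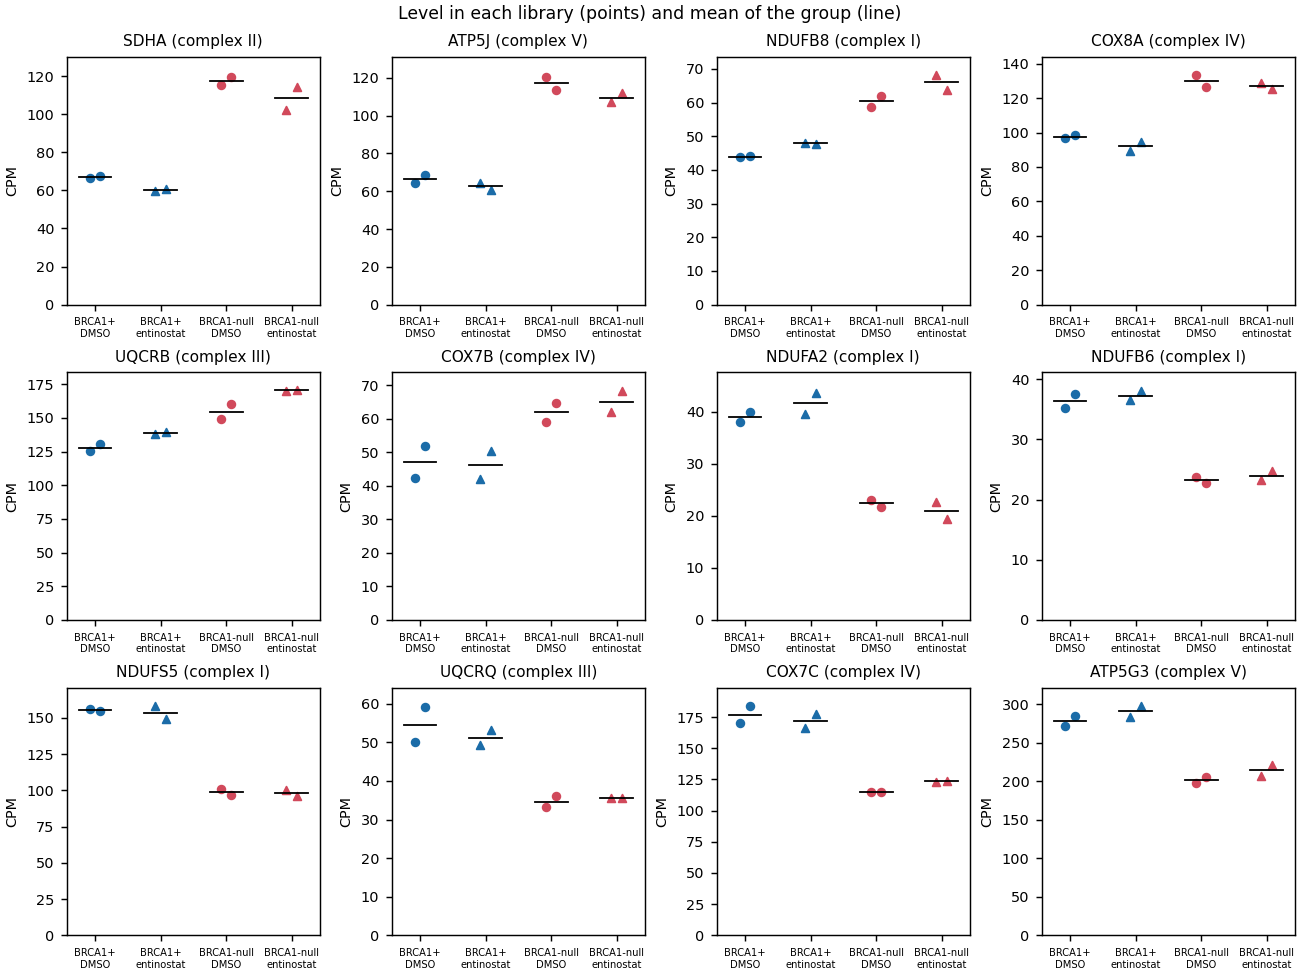
CPM in each library (points, 2 per group) and the group mean (line) for 12 genes of the set, with BRCA1+ in blue, BRCA1-null in red, circles for DMSO and triangles for entinostat. In each panel the BRCA1-null libraries lie all above (SDHA, ATP5J, NDUFB8, COX8A, UQCRB, COX7B) or all below (NDUFA2, NDUFB6, NDUFS5, UQCRQ, COX7C, ATP5G3) the BRCA1+ libraries.

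SDHA, ATP5J and COX8A were higher and UQCRQ was lower in BRCA1-null cells in both comparisons. The upstream sequences of these 4 genes are shown as examples and do not represent the genes of either direction. Each is the 250 bases before the start of the gene in RefSeq (GRCh38.p14), 5′ to 3′ on the strand of the gene, and capitals mark matches, on either strand, to the core motifs of 3 factor families that are known to act on nuclear oxidative phosphorylation genes: CCGGAAG for the ETS family, to which GABPA belongs, GCGCATG for NRF1 and AAGATGG for YY1. The motifs do not contain one another. ATP5J is named ATP5PF in RefSeq.
SDHA (chr5:218070-218319, + strand): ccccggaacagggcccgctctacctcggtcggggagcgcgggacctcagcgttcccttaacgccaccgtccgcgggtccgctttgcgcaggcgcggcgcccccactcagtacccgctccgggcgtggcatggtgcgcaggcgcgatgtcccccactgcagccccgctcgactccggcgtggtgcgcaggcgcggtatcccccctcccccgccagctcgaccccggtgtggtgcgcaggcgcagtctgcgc
ATP5J (chr21:25735055-25735304, - strand): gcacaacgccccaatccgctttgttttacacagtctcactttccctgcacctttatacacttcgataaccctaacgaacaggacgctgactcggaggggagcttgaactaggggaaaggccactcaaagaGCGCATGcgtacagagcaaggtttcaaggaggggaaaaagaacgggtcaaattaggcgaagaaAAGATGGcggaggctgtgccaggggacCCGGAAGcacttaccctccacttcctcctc
COX8A (chr11:63974370-63974619, + strand): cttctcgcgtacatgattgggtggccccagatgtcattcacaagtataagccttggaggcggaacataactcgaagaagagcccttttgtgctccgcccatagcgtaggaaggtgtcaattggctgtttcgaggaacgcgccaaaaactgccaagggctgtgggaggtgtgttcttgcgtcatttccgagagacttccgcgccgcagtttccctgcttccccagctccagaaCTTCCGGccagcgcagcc
UQCRQ (chr5:132866392-132866641, + strand): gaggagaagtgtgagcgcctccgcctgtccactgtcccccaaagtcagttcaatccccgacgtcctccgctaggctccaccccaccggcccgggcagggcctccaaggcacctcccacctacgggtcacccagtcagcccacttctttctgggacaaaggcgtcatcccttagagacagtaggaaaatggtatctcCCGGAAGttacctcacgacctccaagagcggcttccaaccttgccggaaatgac
ATP5J held matches to all 3, the NRF1 letters from 120 to 114, the YY1 letters from 57 to 51 and the ETS letters from 30 to 24 bases before the start. COX8A held an ETS match from 18 to 12 bases and UQCRQ from 54 to 48 bases before it, and in SDHA none of these letters were found. Promoters of some other lower genes were read but not printed: NDUFA2, NDUFB6 and NDUFS4 held none of the letters, and COX7C a YY1 match only. A RefSeq promoter was matched for 70 of the 90 genes. ETS matches were present in 16 of the 70 (22.9%) and in 8.82% of 27305 promoters of the same length, NRF1 matches in 13 (18.6%) and in 3.96%, and YY1 matches in 4 (5.71%) and in 3.77%. Among the genes with a promoter, an ETS match was found for 3 of 9 that were higher in DMSO, 6 of 23 that were lower and 7 of 35 that were tested and not called, and an NRF1 match for 2, 4 and 7 of the same genes. A match is a description of letters and shows no binding.

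The differences between the lines were then set beside those of other genes at the same position. For each gene the median log2 fold change of up to 50 tested neighbours, 25 on each side and none of them in the set, was taken. On the long arm of chromosome 5, NDUFS4, COX7C, UQCRQ and NDUFA2 were lower in BRCA1-null cells in both comparisons. Around NDUFA2 the median was -0.74 over 50 neighbours, with 1 called higher and 38 lower, around COX7C it was -0.64 over 50 neighbours, with 2 called higher and 32 lower, and around UQCRQ it was -0.53 over 50 neighbours, with 3 called higher and 28 lower. NDUFS4, whose neighbours reach across the centromere, had a median of 0.13 over 50 neighbours, with 13 called higher and 16 lower. SDHA, near the tip of the short arm, had a median of 0.62 over 27 neighbours, with 16 called higher and 2 lower.

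Away from chromosome 5, the neighbours of NDUFB6 on chromosome 9 had a median of -0.55 over 50 neighbours, with 3 called higher and 31 lower. Those of ATP5J on chromosome 21 had a median of 0.49 over 50 neighbours, with 24 called higher and 2 lower. COX7B had 0.73 over 50 neighbours, with 29 called higher and 3 lower, and COX5A on chromosome 15 had 0.58 over 50 neighbours, with 36 called higher and 3 lower. The opposite case was ATP5G1 on chromosome 17, with a log2 value of -0.14 of its own and a median of 0.47 over 50 neighbours, with 24 called higher and 3 lower. NDUFB10 on chromosome 16 fell while its neighbours had a median of 0.02 over 50 neighbours, with 2 called higher and 4 lower.

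Across the 85 genes, Pearson's r between a gene's own log2 fold change and its neighbours' median was 0.673 in DMSO (Spearman's rho 0.632) and 0.762 in entinostat (rho 0.687), and without chromosome 5 it was 0.611 (rho 0.609) in DMSO over 79 genes. Over the 80 genes whose mean log2 CPM reached 3, r was 0.770 in DMSO (rho 0.676), beside 0.354 (rho 0.480) over the 10446 other genes of that level. Of 42 called genes, 35 (83.3%) had the sign of their neighbours' median in DMSO, beside 71.0% of the called genes outside the set, or 74.7% at that level. These correlations are across genes of the same libraries, neighbours of adjacent genes are partly the same genes, and the difference from other genes was not tested.

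**Figure D5:**
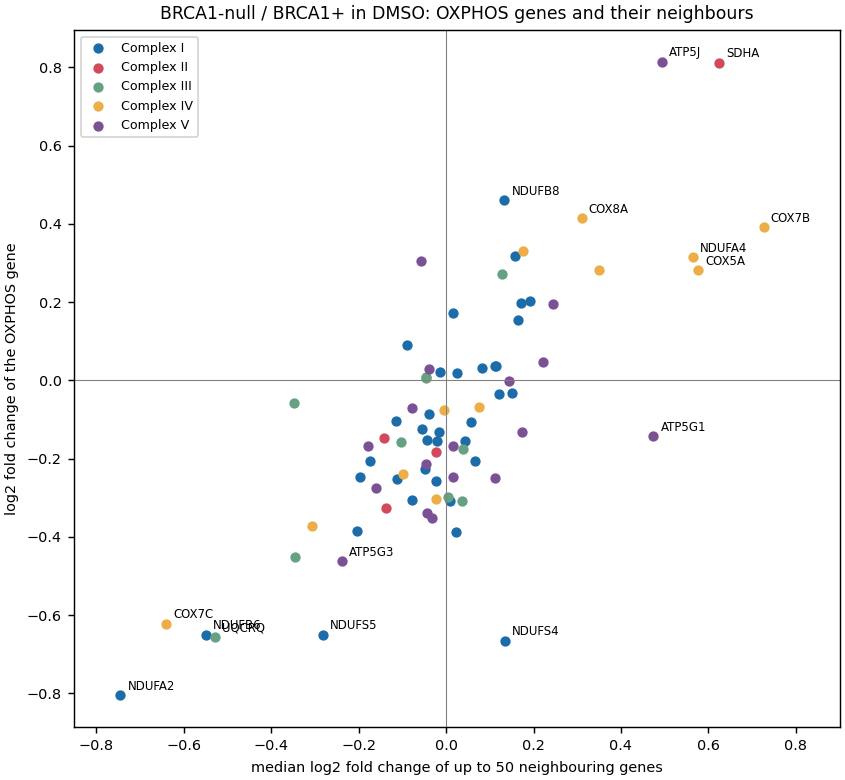
Log2 fold change of BRCA1-null against BRCA1+ cells in DMSO (y axis) for the 80 genes whose mean log2 CPM reached 3, against the median of up to 50 neighbouring genes outside the set (x axis), coloured by complex. NDUFA2, COX7C, UQCRQ and NDUFB6 lie low on both axes and SDHA and ATP5J high on both, while ATP5G1 and NDUFS4 lie apart.

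The genes around the complexes in the same pathway were listed and read in the same tests. Of 14 regulators of transcription of these genes, 3 were higher and 3 lower between the lines in DMSO, 3 and 1 in entinostat, 1 rose and 3 fell under entinostat in BRCA1+ cells, and 1 rose and 1 fell in BRCA1-null cells. The shares called were 42.9%, 28.6%, 28.6% and 14.3%, beside 42.2%, 39.4%, 14.1% and 10.8% of all genes. GABPA, the DNA-binding subunit of an ETS factor for many of these genes, rose in BRCA1-null cells by 0.77 ± 0.0828 (SE, adjusted p = 0.000103) in DMSO, and fell under entinostat, with -0.48 ± 0.0900 (SE, adjusted p = 0.00977) in BRCA1+ and -0.39 ± 0.0809 (SE, adjusted p = 0.0189) in BRCA1-null cells on the log2 scale. GABPA shares 708 listed bases with ATP5J on chromosome 21, and without strand in the counting, reads of that stretch cannot be told apart. The neighbours of ATP5J had a median of 0.49 in DMSO, with 24 called higher and 2 lower. GABPB1, the partner of GABPA, was lower in BRCA1-null cells in DMSO (a log2 value of -0.47). ESRRA, a nuclear receptor that acts with PGC-1 coactivators, was higher in BRCA1-null cells in both comparisons (log2 values of 0.31 and 0.51) and fell under entinostat in BRCA1+ cells (-0.28). TFAM, which packages and transcribes mitochondrial DNA, fell under entinostat in BRCA1+ cells (a log2 value of -0.23) and was lower in BRCA1-null cells in DMSO (-0.22). The coactivator PPARGC1A had 9 to 21 counts in the 4 control libraries and 40 to 111 in the 4 entinostat libraries, and it rose by 1.80 ± 0.459 (SE, adjusted p = 0.032) in BRCA1+ and 2.67 ± 0.418 (SE, adjusted p = 0.00664) in BRCA1-null cells on the log2 scale. Among these regulators calls were lost for GABPA under entinostat in BRCA1+ cells without BRCA1+ control 2 or BRCA1+ entinostat 1 (adjusted p up to 0.0745), and for GABPA under entinostat in BRCA1-null cells without BRCA1-null control 1 or 2 or BRCA1-null entinostat 1 (adjusted p up to 0.12). Calls were also lost for GABPB1 in DMSO without BRCA1+ control 2 or BRCA1-null control 1 (adjusted p up to 0.0821), and for ESRRA under entinostat in BRCA1+ cells without BRCA1+ control 1 or BRCA1+ entinostat 1 or 2, or with upper-quartile factors (adjusted p up to 0.134). A call was further lost for TFAM in DMSO without BRCA1+ control 2 or BRCA1-null control 1 or 2 (adjusted p up to 0.0612), and for TFAM under entinostat in BRCA1+ cells without BRCA1+ control 2 or BRCA1+ entinostat 1 or 2, or with upper-quartile factors (adjusted p up to 0.144). Such a loss was also seen for PPARGC1A under entinostat in BRCA1+ cells without BRCA1+ control 1 or 2 or BRCA1+ entinostat 1 or 2 (adjusted p up to 0.17).

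Of 7 subunits and related proteins whose symbols the rule does not catch, 1 was higher and 3 lower in DMSO, and 1 and 1 in entinostat. The shares called were 57.1% and 28.6%, beside 42.2% and 39.4% of all genes. CYCS, cytochrome c, rose in BRCA1-null cells (0.19 and 0.38) and fell under entinostat in BRCA1+ cells, with -0.20 ± 0.0542 (SE, adjusted p = 0.0383) on the log2 scale. ATPIF1, the inhibitor of the ATP synthase, fell in BRCA1-null cells (log2 values of -0.40 and -0.39). Assembly factors of complex IV, 21 in number, had 5 higher and 1 lower in DMSO and 6 higher and 0 lower in entinostat, among them COX11, a copper chaperone (log2 values of 0.62 and 0.72), and COX19 (0.53 and 0.67). In each comparison 28.6% of the 21 were called, beside 42.2% and 39.4% of all genes. Of 14 assembly factors of complex I (42.9% called in each), 2 were higher and 4 lower in DMSO and 3 and 3 in entinostat. NDUFAF2 (log2 values of -0.55 and -0.42) and NDUFAF3 (-0.62 and -0.57) fell in BRCA1-null cells. ECSIT fell under entinostat in both lines, with -0.36 ± 0.0759 (SE, adjusted p = 0.0152) in BRCA1+ and -0.31 ± 0.0741 (SE, adjusted p = 0.0328) in BRCA1-null cells on the log2 scale. Of the few assembly factors of complexes II (4), III (3) and V (3), 1, 1 and 0 were higher and 0, 1 and 0 lower in DMSO, with the same counts in entinostat. Calls of this group were lost for CYCS in DMSO without BRCA1+ control 1 or BRCA1-null control 2 (adjusted p up to 0.106), and for CYCS under entinostat in BRCA1+ cells without any 1 of 8 libraries, or with upper-quartile factors or only the groups compared (adjusted p up to 0.187). Calls failed likewise for ECSIT under entinostat in BRCA1+ cells without BRCA1+ control 1 or BRCA1+ entinostat 1 or 2 (adjusted p up to 0.111), and for ECSIT under entinostat in BRCA1-null cells without any 1 of 6 libraries, or with only the groups compared (adjusted p up to 0.136).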

How the data were processed

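Poly(A) RNA was sequenced in 8 libraries, 2 for each line and treatment, and the sample titles gave groups and replicate numbers. The values used were read counts per gene, not normalised, which the authors deposited as 1 table. By the study's methods, alignment was to hg19 with TopHat and counting, by gene symbol, used NGSUtils. The treatment of strand and of reads with several positions is not given in the sources used here. Of the 90 genes of the set, 25 overlap another listed gene, some of them entries with very long listed spans. Positions and lengths came from the table, counted from 1. The table has 1 row without a gene name, with 0 counts, which was left out.

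Genes were kept by filterByExpr (17714), scaled by TMM and fitted in edgeR 4.0.16 (R 4.3.3) by a quasi-likelihood model with a mean per group over all 8 libraries. Tests were two-sided, and a gene was called at a Benjamini-Hochberg adjusted p under 0.05 over all 17714 genes. The biological coefficient of variation was 9.04%. Replicates of a group differed beyond sampling noise (chi-square per degree of freedom 8.18 to 14.1). CPM values use the scaled library sizes.

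The set, the pathway lists and the alternatives were chosen with earlier results of these data known, and the lists were compiled from general knowledge. Values in every library are given for a panel (core, isoform and F1 genes), for the called gene with the largest difference each way per complex and comparison (mean log2 CPM reaching 3, no overlap), and for chromosome 5; 1 gene of the panel is not reported here. The neighbour comparison, the motifs and the promoters printed were chosen after values were seen (the NRF1 and YY1 motifs after longer forms had been searched), as were the pathway genes named outside the set. COX7A1 and COX6B2 are given as counts. Neighbours were taken in order of the midpoint of the listed position, with the listed start for ties. Genes that overlap a gene of the set were not taken as its neighbours, whereas for the genes outside the set overlapping genes were not left out. Alternatives were other scalings, filters, tests (DESeq2 1.42.0, the likelihood ratio test), a block for the replicate number, fits limited to the groups compared, and omission of single libraries, overlapping genes or chromosome 5.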

Additional observations from a re-analysis of the deposited data

How the results depend on the processing

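With 2 libraries per group, single calls near the threshold often rested on 1 library. Of 76 calls of genes of the set that are given with their values, 45 held under every alternative, 22 were lost only when a library was left out, and 9 were lost under another setting. Of 38 such calls of other pathway genes, 21 held under every alternative. None of these calls changed sign. The number of genes called between the lines in DMSO (42) lay between 27 and 42 with 1 library left out, and in entinostat (36) between 27 and 38. The other settings without a block gave 30 to 42 and 26 to 37. The lowest counts came with overlapping genes omitted, which takes 24 of the 85 tested genes out of the set, so that the count could not rise. The median log2 fold change in DMSO was -0.10 with upper-quartile factors, a scaling that put the median over all tested genes at 0.05 in place of 0.01. The 1 gene called under entinostat in BRCA1+ cells became 0 with upper-quartile factors, without a filter and with only the groups compared, and 0 to 1 with a library left out. Omission of overlapping genes removes this gene, NDUFS3, itself, so the count of 0 there was fixed in advance. The median of the set was 0.004 with upper-quartile factors, where that over all tested genes was 0.05 in place of 0.00. With a library left out, the median of the set lay between -0.091 and -0.015. The cause was not tested.

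Libraries with the same replicate number deviated together only in part (correlations of 0.0523 to 0.287 over the 6 pairs of groups), so the numbers were not taken as a pairing. With the replicate number as a block, 55 and 45 genes were called between the lines in DMSO and entinostat, 5 (all lower) under entinostat in BRCA1+ cells, 1 (higher) in BRCA1-null cells and 0 for the interaction. The shares of all genes called with the block were 50.5%, 47.4%, 24.4% and 20.6% in the first 4 of these comparisons. SDHC was also called in entinostat with the block (adjusted p = 0.0307). At this depth the mean log2 CPM reached 3 for all but 5 of the tested genes of the set. The 2 libraries per group limit the precision.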

Other observations

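The mitochondrial ribosome, which translates the subunits encoded in mitochondrial DNA, was represented by 76 tested genes. Between the lines 13 were higher and 14 lower in BRCA1-null cells in DMSO, and 18 higher and 7 lower in entinostat. The shares called were 35.5% and 32.9%, beside 42.2% and 39.4% of all genes. The largest differences were those of MRPL39 (0.83 on the log2 scale in DMSO), which lies near ATP5J on chromosome 21, MRPS30 (0.69) on the short arm of chromosome 5, and MRPS36 (-0.99) and MRPL22 (-0.68) on its long arm. Under entinostat 8 genes fell and 0 rose in BRCA1+ cells, beside 6.0% of all genes called lower and 8.15% higher. An unadjusted p under 0.05 was found for 28 of the 76 and for 29.0% of all genes. In BRCA1-null cells, where 3.19% of all genes were called lower, 1 gene, MRPL55 (a log2 value of -0.35), fell. MRPS26 fell most in BRCA1+ cells, with -0.41 ± 0.0877 (SE, adjusted p = 0.0174), followed by MRPL36 (-0.38) and MRPS30 (-0.31) on the log2 scale. With a library left out calls were lost for MRPS26 under entinostat in BRCA1+ cells without BRCA1+ control 1 or BRCA1+ entinostat 2 (adjusted p up to 0.136), and for MRPL36 under entinostat in BRCA1+ cells without BRCA1+ control 1 or 2 or BRCA1+ entinostat 1 or 2 (adjusted p up to 0.16). Calls were also lost for MRPS30 under entinostat in BRCA1+ cells without BRCA1+ control 2 or BRCA1+ entinostat 1 or 2 (adjusted p up to 0.112), and for MRPL55 under entinostat in BRCA1-null cells without BRCA1-null control 1 or 2 or BRCA1-null entinostat 1 or 2, or with only the groups compared (adjusted p up to 0.0868). The median of the list under entinostat was -0.12 in BRCA1+ and -0.04 in BRCA1-null cells. The interaction was called for 0 of the 76 genes by edgeR's quasi-likelihood test, and for 0 by its likelihood ratio test and by DESeq2. By the quasi-likelihood test 2 of the 76 had an unadjusted p under 0.05, beside 4.67% of all genes.

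Of 14 citric acid cycle genes, 5 were higher and 2 lower in BRCA1-null cells in DMSO, and 4 and 2 in entinostat. The 7 of 14 and 6 of 14 called were near the shares of all genes (42.2% and 39.4%). IDH2, which makes NADPH from isocitrate in mitochondria, rose by 0.80 ± 0.0703 (SE, adjusted p = 3.38e-05) in DMSO and 0.79 ± 0.0703 (SE, adjusted p = 3.97e-05) in entinostat on the log2 scale. Under entinostat FH, fumarate hydratase, fell in BRCA1+ cells (a log2 value of -0.31) and OGDH, of the oxoglutarate dehydrogenase complex, rose in BRCA1-null cells (0.22). Both calls were lost under some settings, for FH under entinostat in BRCA1+ cells without BRCA1+ control 2 or BRCA1+ entinostat 1 or 2 (adjusted p up to 0.147), and for OGDH under entinostat in BRCA1-null cells without any 1 of 6 libraries, or with only the groups compared (adjusted p up to 0.17).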
